A study of Mus musculus with 15 samples.

Results

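The loci described are the 1 Mb surroundings of 10 mouse genes of fat synthesis, glucose use and hormone secretion: Acly, Acaca, Fasn, Elovl6, Scd1, Me1, Pck1, Slc2a4, Adipoq and Retn. They were chosen by gene name, as all HindIII cut sites within 500 kb of a stated mm9 position of each gene, and not by any measured value. Earlier results of these data were known when the genes and tests were chosen. The 10 windows hold 2963 HindIII sites and are 10 of 2399 autosomal windows of 1 Mb. What was asked of each locus is how often it was ligated to 3 distant bait sites.

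De novo lipogenesis turns glucose carbon into fat. Acly cleaves citrate to acetyl-CoA, Acaca carboxylates it to malonyl-CoA, Fasn builds palmitate from these units, Elovl6 extends palmitate, Scd1 puts in the double bond, and Me1 supplies NADPH. In fat cells, Pck1 feeds glycerol synthesis, Slc2a4 is the insulin-responsive glucose transporter GLUT4, and Adipoq and Retn encode the secreted hormones adiponectin and resistin. These genes come on as fibroblasts turn into adipocytes, and several of them, Adipoq and Pck1 among them, are known targets of the nuclear receptor PPARγ.

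The assay was 4C-seq, circular chromosome conformation capture with sequencing, which counts ligation products between a bait and every other HindIII site in formaldehyde-fixed nuclei. The baits lay at Pparg (chromosome 6), at Lpin1 (chromosome 12; a phosphatidate phosphatase of lipid synthesis) and at Ifng (chromosome 10; interferon gamma, a lymphocyte cytokine), so every contact described is between chromosomes. Each bait was read in the mouse preadipocyte line 3T3-L1 at days 0, 1, 2 and 6 of adipogenesis, with 2 libraries a day. A B lymphocyte cell line gave 1 further library per bait. No genotype or transgene is listed for the groups, and genetic differences between the 2 cell lines cannot be told apart from cell type. The day 0 cells were confluent preadipocytes, and the later days had received dexamethasone, 3-isobutyl-1-methylxanthine, insulin and foetal calf serum. All day 1, 2 and 6 cells share that cocktail, there was no vehicle series, and a bulk library averages cells that did and did not differentiate. Both libraries of a day stand under 1 deposited sample, 5 samples a bait, so n = 8 below counts libraries of 4 samples. The labels do not say whether they came from separate cultures, so a p-value covers only how much the libraries at hand varied, which may be technical variation.

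The 27 libraries held 116031 to 3002206 reads, of which 3.07% to 93.2% lay on the bait site itself. A HindIII site with 1 read or more is called captured, and 0.443% to 7.72% of the sites on other autosomes were captured in a library. The number captured at day 6 was lower than at day 0 for each bait, with means of 7910 against 18449 for Pparg, 5552.5 against 17069 for Lpin1 and 20587.5 against 44414.5 for Ifng. A locus held 0 to 86 captured sites in a library. The value given below, a multiple, is the captured share of a locus over that of a reference in the same library. The reference is all autosomes other than its own and the bait's, so 1 means as often as their mean. Depth cancels only in part, since a site is scored once however many reads it holds. A typical window need not lie at 1. With Ifng, 11.9% and 8.43% of the sites on chromosomes 16 and 6 were captured on average, against 3.22% to 5.52% on the others. The median of all windows was then -0.29 as log2 of the multiple, and Ifng levels are to be read beside it. With few captured sites a multiple is coarse, and its counting error is set by those sites and not by the total number of reads.

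Of the 6 lipogenic loci, Acly, Acaca, Fasn and Scd1 were called above the autosomal level with both fat-gene baits and below it with the Ifng bait. With Ifng, 48.1% of all 2227 windows were called lower, and their median log2 level was -0.29. Acly, on chromosome 11 at 99.84 to 100.84 Mb with 281 sites, ran from 1.83 through a median of 3.15 to 4.29 in the 8 3T3-L1 libraries of the Pparg bait. With the Lpin1 bait its multiples ran from 0.945 through 1.57 to 2.08, and with the Ifng bait from 0.413 through 0.725 to 0.955. All 8 Pparg libraries were thus above 1 and all 8 Ifng libraries below it, with no overlap between these baits. How many of all windows separate by bait in this way was not counted. Such separation, here and below, therefore only describes single loci. The fitted level, the log2 of the multiple averaged over days, was 1.42 ± 0.18 (SE, n = 8; adjusted p = 3.44e-14) for Pparg, 0.55 ± 0.21 (adjusted p = 0.0238) for Lpin1 and -0.52 ± 0.16 (adjusted p = 0.00334) for Ifng, by edgeR's quasi-likelihood test with Benjamini-Hochberg adjustment over all windows, as for every adjusted p below. The Lpin1 call was lost in DESeq2 (adjusted p = 0.0936) and without Lpin1 day 1 replicate 1, day 2 replicate 1 or day 6 replicate 1 (0.0851, 0.131 and 0.203). The Ifng call was also lost in DESeq2 (0.0674).

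**Figure D1:**
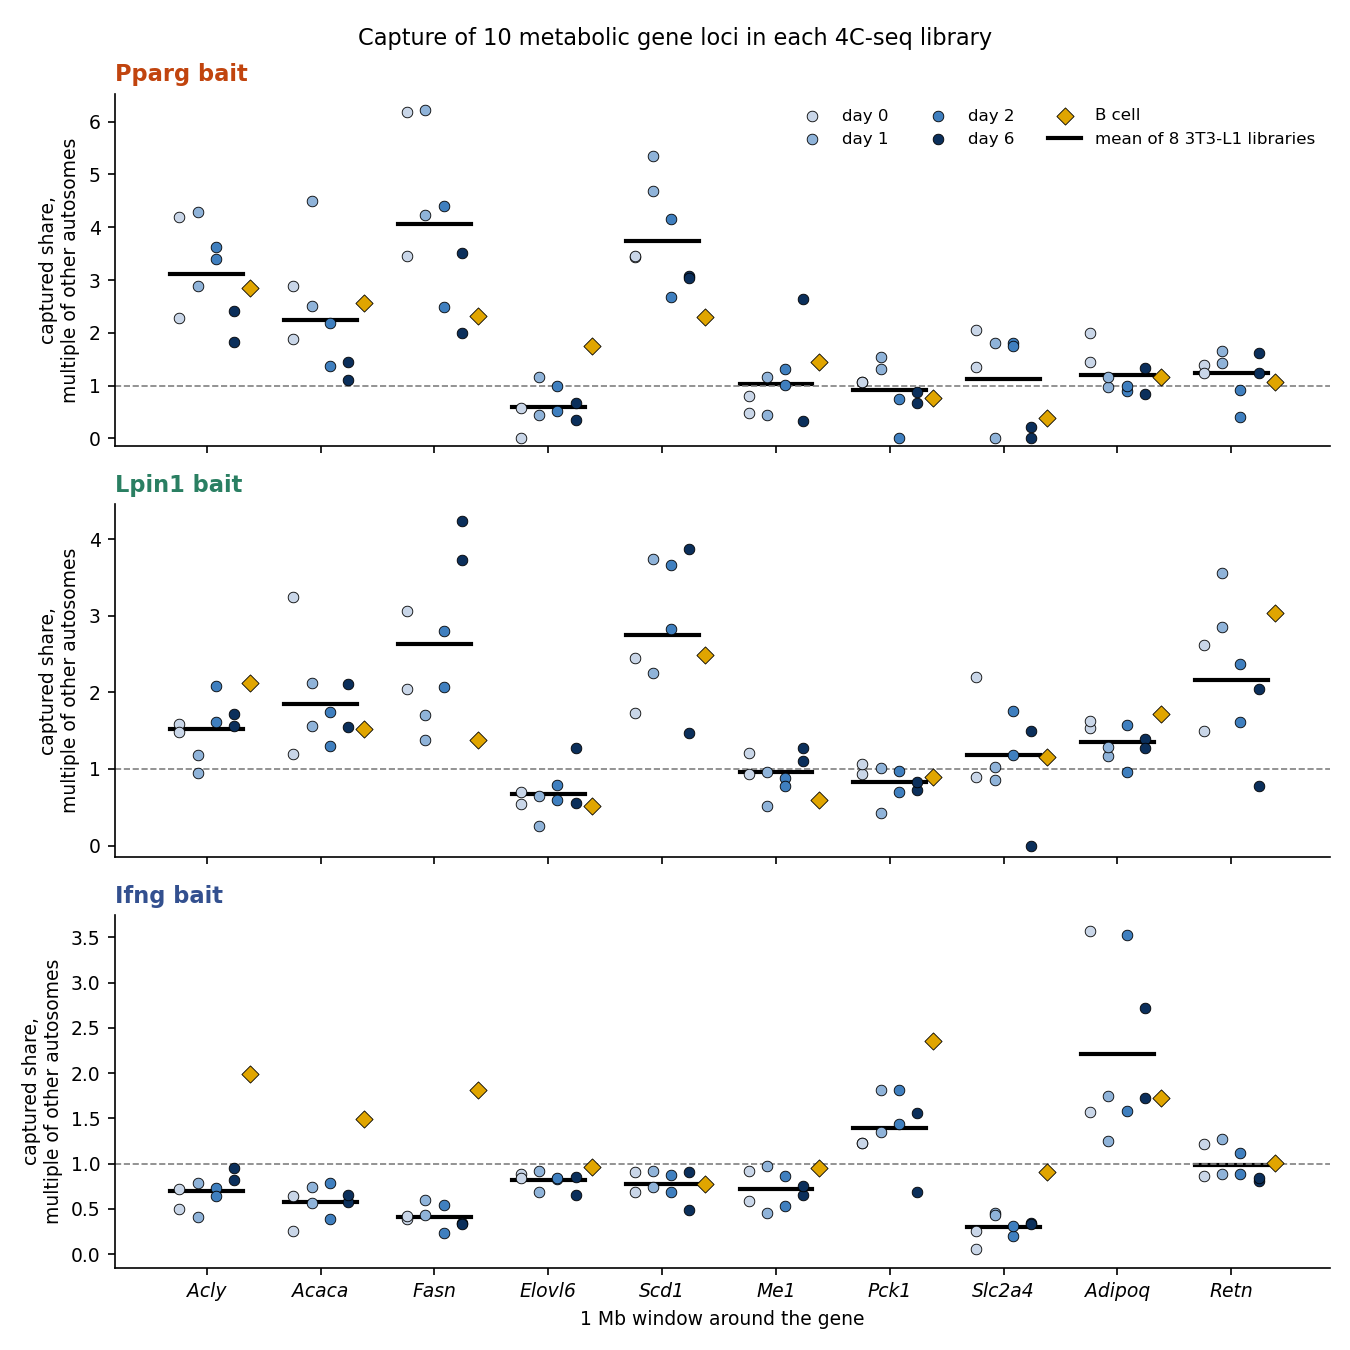
Captured share of each 1 Mb locus as a multiple of the share on other autosomes, 1 panel per bait; circles are the 3T3-L1 libraries shaded by day, black bars the mean of 8 libraries, and diamonds the B cell library. With the Pparg bait, Acly, Acaca, Fasn and Scd1 lie above the dashed line at 1 in all 8 libraries, and with the Ifng bait they lie below it in all 8. The median of all windows with Ifng is also below 1, at a log2 level of -0.29.

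Acaca, the carboxylase of the committed step, lies on the same chromosome at 83.44 to 84.44 Mb (312 sites). Its multiples ran from 1.10 through 2.03 to 4.50 with Pparg and from 1.19 through 1.65 to 3.25 with Lpin1. With Ifng they ran from 0.253 through 0.609 to 0.784. Every library of either fat-gene bait lay above every Ifng library. The fitted log2 levels were 0.82 ± 0.20 (adjusted p = 0.000119), 0.77 ± 0.20 (0.000814) and -0.80 ± 0.16 (1.19e-05). The Lpin1 call was lost with 250 kb on each side (0.55, adjusted p = 0.227) and with reads in place of captured sites (0.67, 0.435).

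Fasn, the synthase itself, lies near the distal end of chromosome 11 at 120.17 to 121.17 Mb (258 sites). It had the highest mean multiple of the 10 loci with Pparg, 4.06 ± 1.54 (SD, n = 8), over a range of 2.00 to 6.22 and a median of 3.87. With Lpin1 it ran from 1.37 through 2.44 to 4.24, and with Ifng it lay between 0.235 and 0.600, with a median of 0.409. The 8 libraries of each fat-gene bait lay above all 8 Ifng libraries. The log2 levels were 1.69 ± 0.18 (adjusted p = 2.96e-19) for Pparg, which ranked 39 of 1638 windows, 1.20 ± 0.18 (4.27e-08) for Lpin1 and -1.27 ± 0.19 (3.12e-08) for Ifng. With reads in place of captured sites the Lpin1 level was 1.16 (adjusted p = 0.103).

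Scd1, the stearoyl-CoA desaturase, lies on chromosome 19 at 43.97 to 44.97 Mb (300 sites), where Scd2, Scd3 and Scd4 are its neighbours in the RefSeq gene order, so its window reads the whole gene cluster. Its multiples ran from 2.67 through 3.45 to 5.36 with Pparg, from 1.47 through 2.64 to 3.87 with Lpin1, and from 0.487 through 0.809 to 0.916 with Ifng. Again neither fat-gene bait overlapped Ifng. The log2 levels were 1.79 ± 0.15 (adjusted p = 5.29e-30; rank 26 of 1638), 1.39 ± 0.17 (2.39e-11; rank 33 of 1861) and -0.40 ± 0.15 (0.0201). The Ifng call was lost without Ifng day 0 replicate 2, day 1 replicate 2 or day 6 replicate 2 (adjusted p = 0.0604, 0.0907 and 0.188) and in DESeq2 (0.173).

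Elovl6 and Me1, the other 2 lipogenic loci, did not share this pattern. Elovl6, the elongase on chromosome 3 at 128.74 to 129.74 Mb (334 sites), ran from 0 through 0.543 to 1.15 with Pparg, 0.257 through 0.619 to 1.27 with Lpin1 and 0.656 through 0.841 to 0.919 with Ifng. Its libraries overlapped between all baits and sat mostly below 1. The log2 level was -1.06 ± 0.28 (adjusted p = 0.000481) for Pparg and -0.79 ± 0.28 (0.0133) for Lpin1. It was -0.28 ± 0.14 (0.0779) for Ifng. The Pparg call rested on 29 captured sites in 8 libraries. Its level was -2.15 without Pparg day 0 replicate 1, where the library left on that day held 0 captured Elovl6 sites. The call was lost without Pparg day 1 replicate 1 (adjusted p = 0.0630) or day 6 replicate 1 (0.0527) and in DESeq2 (0.124). The Lpin1 call was lost without Lpin1 day 1 replicate 1, day 2 replicate 1 or day 6 replicate 1 (0.146, 0.0934 and 0.131) and in DESeq2 (0.192).

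Me1, malic enzyme on chromosome 9 at 85.98 to 86.98 Mb (342 sites), had median multiples of 0.907, 0.946 and 0.704 with Pparg, Lpin1 and Ifng. Its Pparg libraries spread from 0.334 to 2.64, the Lpin1 libraries from 0.510 to 1.27 and the Ifng libraries from 0.453 to 0.973, all overlapping. The Ifng level was lower, at -0.43 ± 0.15 (adjusted p = 0.00857), a call lost in DESeq2 (0.0986), with at least 2 reads a site (0.0627), over sites captured in any library (-0.11, 0.546) and against its own chromosome (-0.097, 0.654). Those for Pparg, -0.50 ± 0.25 (0.0706), and Lpin1, -0.17 ± 0.28 (0.638), did not pass, but the Pparg level was called lower without Pparg day 6 replicate 2 (-0.80, 0.0117) or day 1 replicate 2 (-0.56, 0.0424).

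The 2 loci of glucose use differed from each other. Pck1, on chromosome 2 at 172.48 to 173.48 Mb (259 sites), was called higher with Ifng, where its multiples ran from 0.688 through 1.39 to 1.81 and 7 of 8 were above 1. The Ifng log2 level was 0.47 ± 0.14 (adjusted p = 0.00208), and the call was lost without Ifng day 6 replicate 2 (0.27, adjusted p = 0.267), on thinning to the shallowest library (0.24, 0.232) and with at least 2 reads a site (0.44, 0.104). With Pparg and Lpin1 the medians were 0.968 and 0.882 and the levels -0.18 ± 0.32 (0.626) and -0.22 ± 0.33 (0.595). Slc2a4, on chromosome 11 at 69.26 to 70.26 Mb (258 sites), had the lowest Ifng multiples of the 10 loci, from 0.0611 through 0.325 to 0.450, a log2 level of -1.83 ± 0.22 (adjusted p = 1.42e-10; rank 2185 of 2227). With the fat-gene baits its libraries were scattered around 1, from 0 through 1.55 to 2.06 for Pparg and from 0 through 1.11 to 2.20 for Lpin1. Their levels, -0.03 ± 0.51 (0.957) and 0.23 ± 0.23 (0.421), did not pass. With the libraries of a sample summed, so that the 4 days are the samples (chosen after seeing the data), the Pparg level was called at 0.58 (adjusted p = 0.0111), the only one of the 30 levels over other autosomes whose call differed in that fit.

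Of the adipokine loci, Adipoq on chromosome 16 at 22.65 to 23.65 Mb (341 sites) stood out with the Ifng bait and not with the fat-gene baits. Its Ifng multiples ran from 1.25 through 1.74 to 3.57, above 1 in all 8 libraries, with a log2 level of 1.10 ± 0.15 (adjusted p = 4.92e-09). With Pparg they ran from 0.836 through 1.07 to 2.00 (0.09 ± 0.16; 0.649) and with Lpin1 from 0.965 through 1.34 to 1.63 (0.34 ± 0.19; 0.134). The Ifng value moved with the chromosome: chromosome 16 as a whole had a multiple of 2.76 ± 0.431 (SD, n = 8) with Ifng, against 0.990 ± 0.0566 with Pparg and 1.06 ± 0.0381 with Lpin1. Against the mean of the rest of chromosome 16 alone, Adipoq was lower with Ifng, at -0.34 (adjusted p = 0.00699). The median log2 level of the other chromosome 16 windows was 0.77 with Ifng, so Adipoq at 1.10 lay above that median and below the mean. Over the sites 0.5 to 2 Mb away, its Ifng multiples ran from 0.545 through 0.989 to 1.31. Retn, on chromosome 8 at 3.16 to 4.16 Mb (278 sites), was higher with Lpin1, where its multiples ran from 0.779 through 2.21 to 3.56 (1.09 ± 0.21; 7.15e-06). That call was lost without Lpin1 day 6 replicate 1 (0.82, adjusted p = 0.183). With Pparg and Ifng its medians were 1.32 and 0.889 and its levels 0.28 ± 0.20 (0.206) and -0.05 ± 0.21 (0.851).

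Counted over the 10 loci, 4 were called higher and 1 lower with Pparg, where 34.4% and 27.1% of all 1638 windows tested were. With Lpin1, 5 were higher and 1 lower, against 27.2% and 21.7% of 1861 windows. With Ifng, 2 were higher and 6 lower, against 22% and 48.1% of 2227 windows. The median log2 level of the loci was 0.18 with Pparg (all windows 0.03), 0.45 with Lpin1 (0.01) and -0.42 with Ifng (-0.29). A large share of all windows differs from the autosomal level, and these counts lie near that background. The values of Fasn, Scd1, Acly and Slc2a4 are those of single loci. In the order of mean multiples for a bait, every locus overlapped the next in range, from Fasn (4.06), Scd1 (3.74) and Acly (3.12) down to Elovl6 (0.587) for Pparg.

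The density of HindIII sites moved with these levels. Over all windows outside the 10, the log2 level fell with the number of HindIII sites for Pparg (Spearman rho = -0.46, 1628 windows) and Lpin1 (-0.41, 1851 windows), and not for Ifng (0.04, 2217 windows). This is a description across windows that share libraries, and the filter keeps a site-poor window only where its capture is high; without it the values were -0.389, -0.343 and 0.0524. Fasn, with 258 sites against a median window of 321 to 325, and Acly, with 281, are site-poor. So are Slc2a4 with 258, Pck1 with 259 and Retn with 278, and Scd1 (300) and Acaca (312) are also below that median. Slc2a4 and Pck1 were not called higher with either fat-gene bait in the main fit. The part of site density in the levels was not tested.

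The chromosome as a whole also moved with them. Chromosome 11, which carries Acly, Acaca, Fasn and Slc2a4, had a mean multiple of 1.26 ± 0.161 (SD, n = 8) with Pparg, 1.21 ± 0.0783 with Lpin1 and 0.841 ± 0.0303 with Ifng. Chromosome 19, with Scd1, stood at 1.53 ± 0.131, 1.88 ± 0.0689 and 1.18 ± 0.0793. With the rest of its own chromosome as the only reference, a setting chosen after seeing the data, the Pparg levels were smaller and still called at Fasn (1.39), Scd1 (1.25), Acly (1.12) and Acaca (0.50, adjusted p = 0.0138). With Lpin1, Fasn (0.95), Scd1 (0.52), Acaca (0.51) and Retn (1.00) were still called, and Acly (0.29, adjusted p = 0.229) was not. With Ifng, Slc2a4 (-1.60), Fasn (-1.03), Scd1 (-0.65) and Acaca (-0.56) were still called lower and Pck1 (0.59) higher, and Acly (-0.28, adjusted p = 0.153) and Me1 (-0.097, 0.654) were not called. Elovl6 with Pparg was still lower (-0.88), and with Lpin1 it was not called (-0.31, adjusted p = 0.436).

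**Figure D2:**
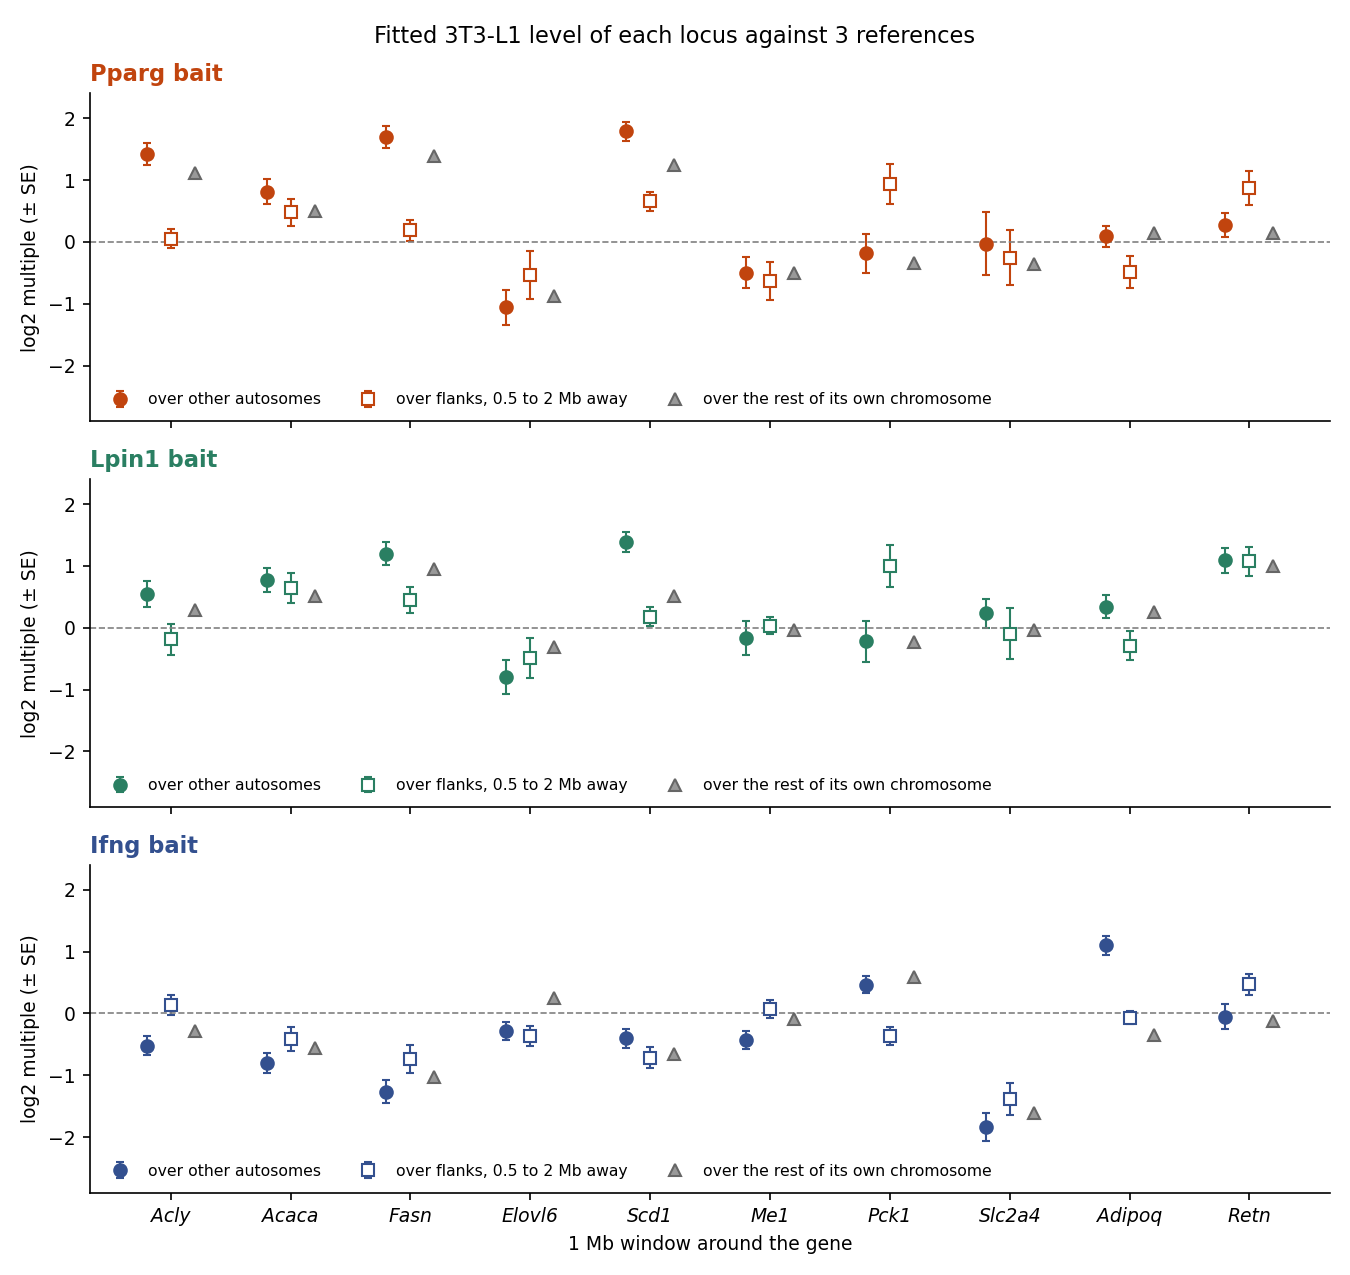
Fitted log2 level of each locus over the 4 days of 3T3-L1, 1 panel per bait, against other autosomes (filled circles), flanks 0.5 to 2 Mb away (open squares) and the rest of its own chromosome (triangles, no error drawn); bars are 1 SE. Fasn, Scd1 and Acly are high with Pparg against autosomes and chromosome, while against the flanks Acly (0.05) and Fasn (0.19) are near 0.

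Set against their own flanks, the sites 0.5 to 2 Mb away on either side, most lipogenic loci were not called. Over its flanks, Fasn had a log2 level of 0.19 ± 0.17 (adjusted p = 0.424) and Acly of 0.05 ± 0.15 (0.842) with Pparg. The flanks of Fasn and Retn run past the ends of the mapped chromosome and hold 564 and 581 sites. Called higher were Scd1 (0.66 ± 0.15; 0.000333), Retn (0.88 ± 0.27; 0.0092) and Pck1 (0.93 ± 0.32; 0.0197) with Pparg, 3 of 10, where 14.5% of all windows were called higher and 10.1% lower. With Lpin1, Retn (1.07 ± 0.23; 0.00085), Pck1 (0.99 ± 0.34; 0.0289) and Acaca (0.65 ± 0.24; 0.0431) were called higher, 3 of 10, where 14.3% were higher and 11.6% lower. With Ifng, Retn (0.48 ± 0.17; 0.016) was higher, and 4 of 10 were lower, namely Slc2a4 (-1.38 ± 0.26; 3.78e-06), Scd1 (-0.71 ± 0.17; 0.000366), Fasn (-0.74 ± 0.23; 0.00573) and Pck1 (-0.36 ± 0.14; 0.025), where 21% were higher and 27.9% lower.

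The Scd1 contrast was seen in the libraries themselves: its share over that of its flanks ran from 1.05 through 1.34 to 2.56 with Pparg and from 0.408 through 0.613 to 0.816 with Ifng, without overlap. Slc2a4 over its flanks ran from 0.0917 through 0.454 to 0.678 with Ifng, below 1 in all 8 libraries. Retn over its flanks ran from 1.16 through 2.21 to 3.76 with Lpin1 and from 1.04 through 1.44 to 2.09 with Ifng. Most flank calls were sensitive to the setting. In DESeq2 only Retn with Lpin1 (adjusted p = 0.0114) and Slc2a4 and Scd1 with Ifng (0.00543 and 0.0316) were called, and with flanks of 0.5 to 1 Mb Slc2a4 with Ifng was -0.20 (0.741) and Retn with Lpin1 0.37 (0.341). Leaving out single libraries ended calls too. With Pparg, Scd1 lost its call without day 1 replicate 1 (0.167) or day 6 replicate 1 (0.180), and Retn without day 1 replicate 1 (0.0848) or day 2 replicate 1 (0.334). Pck1 lost it without replicate 1 of any day and went to -0.12 without that of day 2, where the library left held 0 captured Pck1 sites. With Lpin1, Retn lost its call without day 6 replicate 1 (0.105), Acaca without day 0 replicate 1, day 1 replicate 2, day 2 replicate 1 or either day 6 library (0.0822 to 0.326), and Pck1 without day 0 replicate 2, day 1 replicate 1, day 2 replicate 1 or either day 6 library (0.0634 to 0.272). With Ifng, Pck1 lost it without day 0 replicate 2, day 1 replicate 1, day 2 replicate 2 or day 6 replicate 1 (0.0512 to 0.0921) and Retn without replicate 1 of day 0, 1 or 2 or replicate 2 of day 6 (0.0610 to 0.162).

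Within the windows, the highest capture adjoined some genes and lay away from others. The windows were divided into bins of 100 kb, and captured sites were summed over the 8 3T3-L1 libraries of a bait. Of 30 pairs of locus and bait, 9 had their highest bin among the 2 of 10 that adjoin the gene position: Retn with every bait, Acaca with Pparg and Lpin1, Fasn with Lpin1 and Ifng, Elovl6 with Lpin1 and Adipoq with Pparg. For Fasn with Pparg, all 10 bins were above 1, and the highest lay 200 to 100 kb before the gene position on the mm9 axis, at 6.20 (21 captured sites, in 7 of 8 libraries). With Lpin1 the highest Fasn bin was the adjoining one, 100 to 0 kb before it, at 6.35 (20 captured sites, in 7 libraries), and with Ifng no Fasn bin reached 1. For Scd1 with Pparg the bins from 500 kb before to 200 kb after the position lay between 3.46 and 6.88, and the 3 bins farther out between 1.07 and 1.31. Acly had its highest bin 300 to 400 kb after the gene with Pparg (5.68) and with Lpin1 (3.22), and Adipoq with Ifng 500 to 400 kb before it (5.29, in 8 of 8 libraries). Retn with Lpin1 peaked 100 to 0 kb before the position (6.18, 16 captured sites in 6 libraries).

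**Figure D3:**
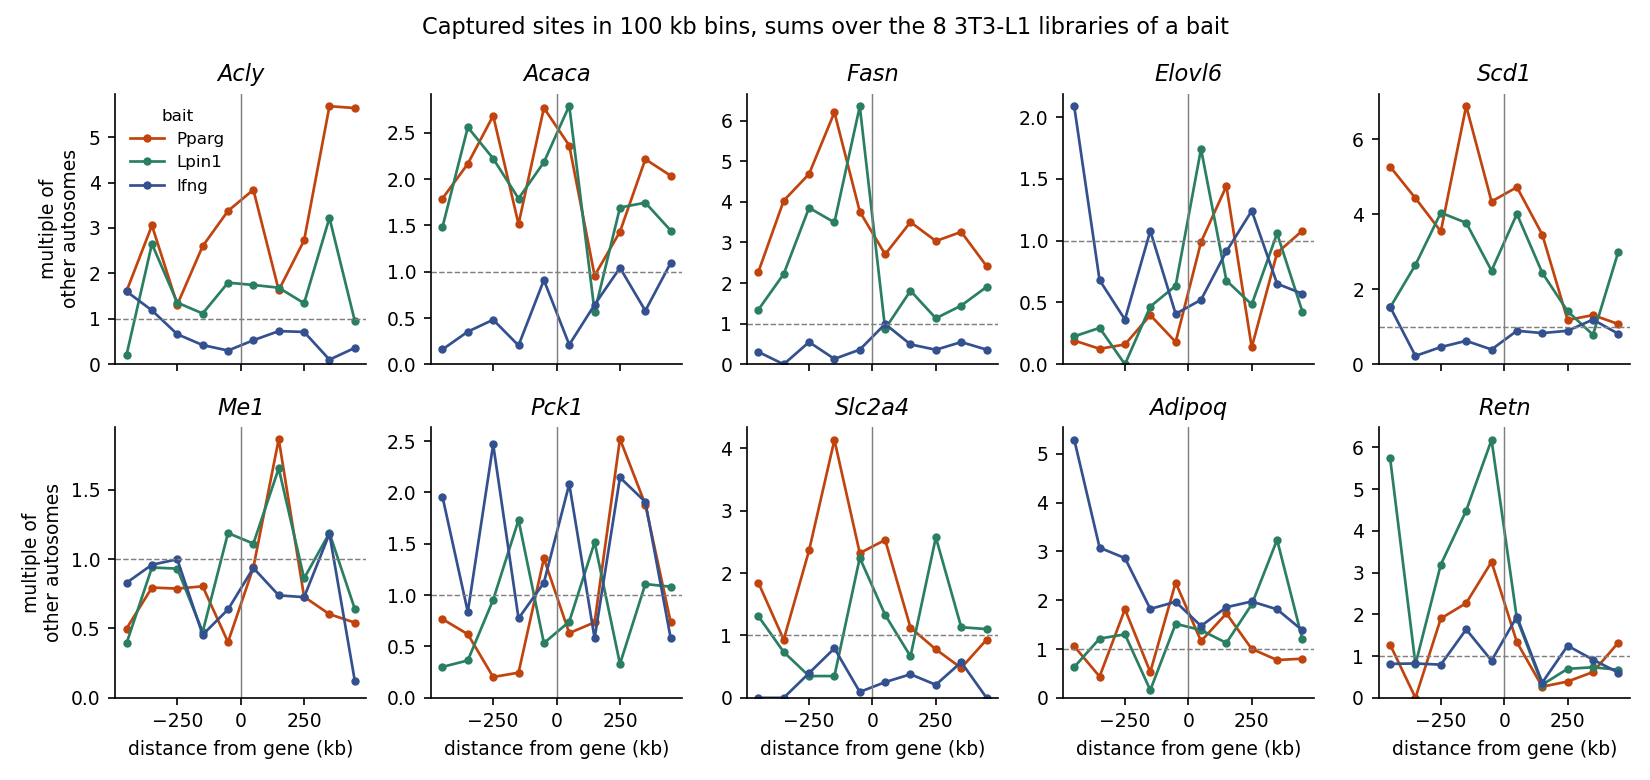
Captured sites in 100 kb bins across each window, summed over the 8 3T3-L1 libraries of a bait and given as a multiple of other autosomes, against distance from the gene position in kb (negative is toward the start of the chromosome). Scd1 with Pparg runs from 3.46 to 6.88 up to 200 kb past the gene, and the highest Adipoq value with Ifng, 5.29, lies at the edge of the window.

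Recurrence of single sites varied between loci. Of the sites captured in any 3T3-L1 library, 40.7% (Scd1) to 71.1% (Slc2a4) were captured in only 1 library, and the rest in more. The site captured most often was at the Retn locus, at chr8:3754524-3754529 (mm9), 94.5 kb after the gene position, in 10 of 24 libraries: 5 of Lpin1, 4 of Pparg and 1 of Ifng. At Pck1 the site chr2:173034961-173034966, 55.0 kb after the position, was captured in all 8 Ifng libraries with 160 reads in sum and in none of Pparg or Lpin1. At Fasn the most frequent site, chr11:120639193-120639198, lay at -30.8 kb from the position and was captured in 3 Pparg libraries (63 reads), 2 Lpin1 libraries (201 reads) and no Ifng library. The HindIII motif AAGCTT did not occur in the RefSeq promoters at hand, 9 promoters of 300 bases for 8 of the 10 genes (GRCm38.p6, both strands being the same for this palindrome), where 7.45% of 32851 promoters of that length hold it. Capture can therefore be read at sites around these promoters and not inside those windows.

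Directly compared, the fat-gene baits captured Acly, Acaca, Fasn and Scd1 more than the Ifng bait did. Adipoq and Pck1 were called lower, and neither held under all settings. The question is whether loci of fat metabolism are captured differently from fat genes and from a lymphocyte gene. For Pparg minus Ifng, the log2 difference was 2.98 ± 0.27 at Fasn (7.87-fold; adjusted p = 2.87e-27), 2.21 ± 0.23 at Scd1 (5.21e-20), 1.96 ± 0.24 at Acly (1.13e-15) and 1.63 ± 0.27 at Acaca (4.34e-09). All 64 pairs of a Pparg and an Ifng library ran this way at each of these loci. How many of all windows do so was not counted. Slc2a4 was higher by 1.79 ± 0.68 (0.0129), Adipoq lower at -0.99 ± 0.24 (0.000111), Elovl6 at -0.77 ± 0.32 (0.0231) and Pck1 at -0.63 ± 0.28 (0.0306). That made 5 of 10 higher and 3 lower, where 35.6% and 39.1% of 1959 windows were.

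For Lpin1 minus Ifng, Fasn differed by 2.48 ± 0.28 (adjusted p = 9.29e-17), Scd1 by 1.82 ± 0.26 (1.31e-11), Acaca by 1.59 ± 0.28 (4.53e-08) and Acly by 1.08 ± 0.29 (0.000349). Slc2a4 (2.06 ± 0.41; 2.5e-06) and Retn (1.16 ± 0.26; 2e-05) were also higher, and Adipoq (-0.73 ± 0.25; 0.00499) and Pck1 (-0.67 ± 0.30; 0.0396) lower. These were 6 higher and 2 lower of 10, against 35.3% and 32.6% of all windows. The 2 comparisons share the Ifng libraries, so they are not independent. The median over the 10 loci was 0.99 for Pparg minus Ifng (all windows -0.13) and 1.12 for Lpin1 minus Ifng (0.00).

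Between the fat-gene baits only Acly, higher with Pparg by 0.88 ± 0.25 (adjusted p = 0.00673), and Retn, lower at -0.81 ± 0.27 (0.0264), were called, 1 of 10 each way against 9.19% and 6.94% of windows. Neither passed in DESeq2 (0.0661 and 0.143), with 250 kb on each side (0.269 and 0.136), with at least 2 reads a site (0.108 and 0.0522) or with reads (0.598 and 0.540), nor Acly on thinning (0.0930) or Retn with TMM (0.0599). Acly lost its call without Pparg day 6 replicate 1 (0.0765), and Retn without Pparg day 1 replicate 1, Pparg day 6 replicate 1, Lpin1 day 0 replicate 1, Lpin1 day 2 replicate 1 or Lpin1 day 6 replicate 1 (0.0946 to 0.551). At Fasn the difference was 0.49 ± 0.22, with a 95% interval of 0.06 to 0.93 (0.112), at Scd1 0.40 ± 0.23 (-0.05 to 0.84) and at Acaca 0.04 ± 0.26 (-0.46 to 0.54). In other settings Scd1 was called higher with Pparg against its own chromosome (0.73, adjusted p = 0.00470), and Fasn with 1 Mb on each side (0.73, 0.000383), with the libraries of a sample summed (0.59, 0.0495) and without Pparg day 0 replicate 1 (0.62, 0.0482).

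Libraries decided some of these calls. Slc2a4 for Pparg minus Ifng went to 0.15 without Pparg day 1 replicate 1 and 0.90 without Pparg day 6 replicate 1, and for Lpin1 minus Ifng to 0.56 (adjusted p = 0.948) without Lpin1 day 6 replicate 1. Retn for Lpin1 minus Ifng was lost without Lpin1 day 6 replicate 1 (0.89; 0.138). Elovl6 for Pparg minus Ifng went to -2.02 without Pparg day 0 replicate 1, and Pck1 to -1.94 without Pparg day 2 replicate 1. In both cases the library left on that day held 0 captured sites at the locus. Both lost that call without Pparg day 1 replicate 1, Pparg day 6 replicate 1, Ifng day 1 replicate 2 or Ifng day 6 replicate 2, Elovl6 also without Pparg day 0 replicate 2 or day 2 replicate 1 and Pck1 without Pparg day 0 replicate 1 (adjusted p = 0.0558 to 0.251). Pck1 for Lpin1 minus Ifng lost its call without 9 of the 24 libraries: Ifng day 1, day 2 and day 6 replicate 2, Lpin1 day 0 replicate 1, day 1 replicate 2, and both libraries of Lpin1 days 2 and 6 (0.0514 to 0.240). Pck1 also lost both calls in DESeq2 (0.107 for Pparg and 0.115 for Lpin1 minus Ifng), on thinning (0.238 and 0.361), with at least 2 reads a site (0.131 and 0.269) and with reads (0.120 and 0.440), and that for Lpin1 with 250 kb on each side (0.346). Elovl6 lost its call in DESeq2 (0.106), on thinning (0.619), with at least 2 reads (0.115), with reads (0.596) and with 250 kb on each side (0.727). Slc2a4 for Pparg minus Ifng lost its call with 250 kb on each side (log2 1.05) and with reads (1.77, adjusted p = 0.147), and for Lpin1 minus Ifng with reads (0.0761). Adipoq lost its calls with reads (0.425 and 0.308), with 250 kb on each side for Pparg (0.139) and with at least 2 reads for Lpin1 minus Ifng (0.142). Acly, Acaca, Fasn and Scd1 for Pparg minus Ifng, and Acaca, Fasn and Scd1 for Lpin1 minus Ifng, kept their calls in each of 24 such fits and under all 12 other settings, among them thinning to the shallowest library. With the libraries of a sample summed, 4 samples a bait, they stood at 3.04 (Fasn), 2.22 (Scd1), 2.09 (Acly) and 1.75 (Acaca) for Pparg minus Ifng. In that fit Slc2a4 stood at 2.51 (adjusted p = 4.35e-11) for Pparg and 2.25 (5.46e-08) for Lpin1 minus Ifng. Pparg days 1 and 6 and Lpin1 day 6 each held a library with 0 captured Slc2a4 sites. Acly for Lpin1 minus Ifng lost its call with its own chromosome as the only reference (0.58, adjusted p = 0.0590). With the own chromosome as the only reference, Adipoq turned to 0.51 (0.0467) and 0.61 (0.0203) higher with the fat-gene baits, and Slc2a4 for Pparg minus Ifng lost its call (1.23, 0.0576). The baits also differ in library makeup: sites with 1 read made up 40.7% to 74.1% of captured sites with Ifng and 14.2% to 43.0% with the others.

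Over adipogenesis, no locus was called changed at any day: 0 of the 90 contrasts of days 1, 2 and 6 with day 0 (10 loci, 3 baits) passed in edgeR, 4 had an unadjusted p under 0.05, and DESeq2 called 0. Over all windows, 0% were called at day 1 and at day 2 for each bait, 0% at day 6 for Lpin1 and Ifng and 0.0611% at day 6 for Pparg, which was 1 window. The standard errors of the day 6 changes ran from 0.39 (Scd1, Pparg) to 1.04 (Elovl6, Pparg) on the log2 scale.

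The lowest p was that of Slc2a4 with Pparg at day 6, the gene of the glucose transporter made by mature adipocytes. Its multiples were 2.06 and 1.34 at day 0 (19 and 5 captured sites of 258), 1.81 and 0 at day 1, 1.81 and 1.76 at day 2, and 0.222 and 0 at day 6 (1 and 0 captured sites). Neither day 6 library reached the lower day 0 value, but a day 1 library was also at 0. Pooled, day 6 had 1 captured site where 5.65 were expected from other autosomes, a multiple of 0.177 with an exact 95% interval of 0.00448 to 0.987, and day 0 had 1.85 (1.19 to 2.75). The log2 change was -3.22 ± 1.01 (adjusted p = 0.157), and with 1 Mb on each side of the gene it was called at -2.88 (0.0128).

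Fasn with Pparg had multiples of 3.46 and 6.18 at day 0, 4.23 and 6.22 at day 1, 2.49 and 4.39 at day 2, and 2.00 and 3.51 at day 6. Day 6 overlapped day 0, and the log2 changes of -0.61 ± 0.31 at day 2 (unadjusted p = 0.0467, adjusted 0.598, edgeR) and -0.89 ± 0.42 at day 6 (0.0356 and 0.407) did not pass. With Lpin1 the same locus had 2.04 and 3.06 at day 0 and 3.73 and 4.24 at day 6, which do not overlap, with a change of 0.62 ± 0.45 (adjusted p = 0.906). The difference of the 2 day 6 changes, Pparg minus Lpin1, was -1.52 ± 0.65 (adjusted p = 0.407). Scd1 with Pparg had 3.43 and 3.46 at day 0, 5.36 and 4.69 at day 1 and 3.08 and 3.04 at day 6, with a day 1 change of 0.60 ± 0.30 (adjusted p = 0.817).

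Across the 10 loci, both day 6 libraries were below both day 0 libraries at 5 loci with Pparg (Acaca, Scd1, Pck1, Slc2a4 and Adipoq) and above at 0. With Lpin1 they were above at Fasn and below at Pck1 and Adipoq. With Ifng they were above at Acly and Slc2a4 and below at Fasn and Retn. None of these passed in edgeR, where 0.0611%, 0% and 0% of all windows were called at day 6. Those shares are of calls and not of separated libraries. How many of all windows separate in this way was not counted, so no direction is read from these loci. Adipoq, which fat cells switch on as they mature, had 1.45 and 2.00 at day 0 and 0.836 and 1.32 at day 6 with Pparg, a change of -0.77 ± 0.60 with a 95% interval of -1.94 to 0.40.

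**Figure D4:**
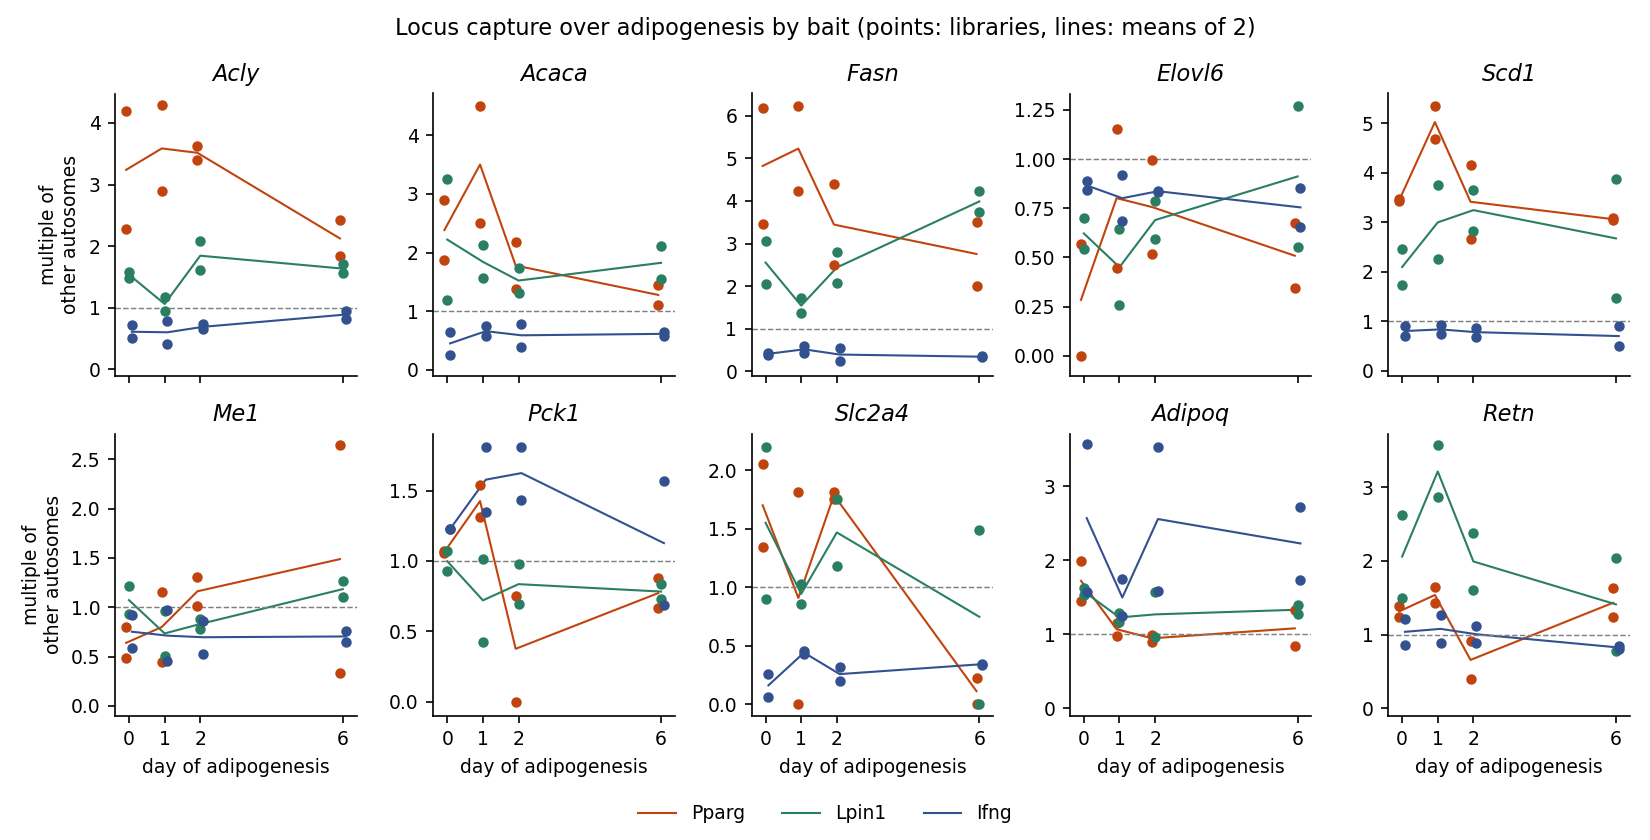
Multiple of other autosomes at each locus by day (0, 1, 2 and 6, to scale) for the 3 baits; points are libraries and lines join the means of 2, and each panel has its own vertical scale. Slc2a4 with Pparg ends at 0.222 and 0 on day 6, and the libraries of a day are often as far apart as the days.

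In the B cell line, each bait has 1 library, which is assumed to vary like the 3T3-L1 libraries, and its exact 95% binomial intervals cover counting error only. With the fat-gene baits, most of the highly captured loci had B cell values inside the 3T3-L1 range. Acly had a B cell multiple of 2.85 (interval 1.24 to 5.53) with Pparg and 2.12 (1.31 to 3.20) with Lpin1, Scd1 2.30 (0.931 to 4.69) and 2.49 (1.63 to 3.60), and Retn with Lpin1 3.03 (2.06 to 4.25). Fasn had 2.33 (0.858 to 4.99) with Pparg and 1.38 (0.721 to 2.37) with Lpin1. Each of these but Acly with Lpin1, whose 3T3-L1 maximum is 2.08, and Scd1 with Pparg, whose minimum is 2.67, lay inside the 3T3-L1 range. None of the 10 loci was called different with Pparg or Lpin1 by edgeR, where 0.122% and 0.86% of windows were. At an unadjusted p under 0.05 there was 1, Elovl6 with Pparg (1.83 ± 0.81; adjusted p = 0.332), and DESeq2 called 0.

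With the Ifng bait, Fasn was captured more in B cells than in 3T3-L1. It had 10 captured sites of 258, a multiple of 1.81 (interval 0.874 to 3.27), above the 0.600 that was the highest of 8 3T3-L1 libraries. The log2 difference was 2.10 ± 0.55 (adjusted p = 0.0173), the only call among 10, where 3.5% of windows were called. Acly (1.99 against at most 0.955), Acaca (1.50 against at most 0.784) and Slc2a4 (0.904 against at most 0.450) also lay above all 8 3T3-L1 libraries, with differences of 1.49 ± 0.47 (0.0717), 1.36 ± 0.52 (0.154) and 1.67 ± 0.79 (0.263) that did not pass. So did Pck1 on chromosome 2 (2.35 against at most 1.81) and Elovl6 on chromosome 3 (0.967 against at most 0.919), with differences of 0.74 ± 0.45 (0.425) and 0.22 ± 0.54 (0.892). Scd1 on chromosome 19 had 0.776 in B cells, inside its 3T3-L1 range. How many of all windows lay above all 8 3T3-L1 libraries was not counted. Whole chromosomes also did so in this library. They were chromosomes 11 (0.981 against at most 0.880), 2 (1.05 against 1.00), 3 (0.827 against 0.752) and 9 (0.908 against 0.829). Chromosomes 8, 16 and 19 lay below all 8. Chromosome 11 had a median log2 difference of 0.30 over its windows and 3 of 111 windows called higher. The Fasn call was lost in DESeq2 (0.454) and with 250 kb on each side (2.02; 0.212).

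The B cell minus 3T3-L1 difference was also set between baits with an interaction, added after seeing the data. Fasn was known to be called with Ifng, and the same single B cell library enters, so this is no independent support. At Fasn the difference was larger with Ifng than with Pparg by 2.61 ± 0.78 (adjusted p = 0.0443; 2.09% of windows called) and than with Lpin1 by 2.86 ± 0.72 (0.0107; 3.52%). Neither passed in DESeq2 (0.340 and 0.323), and the other 9 loci were not called in either.

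**Figure D5:**
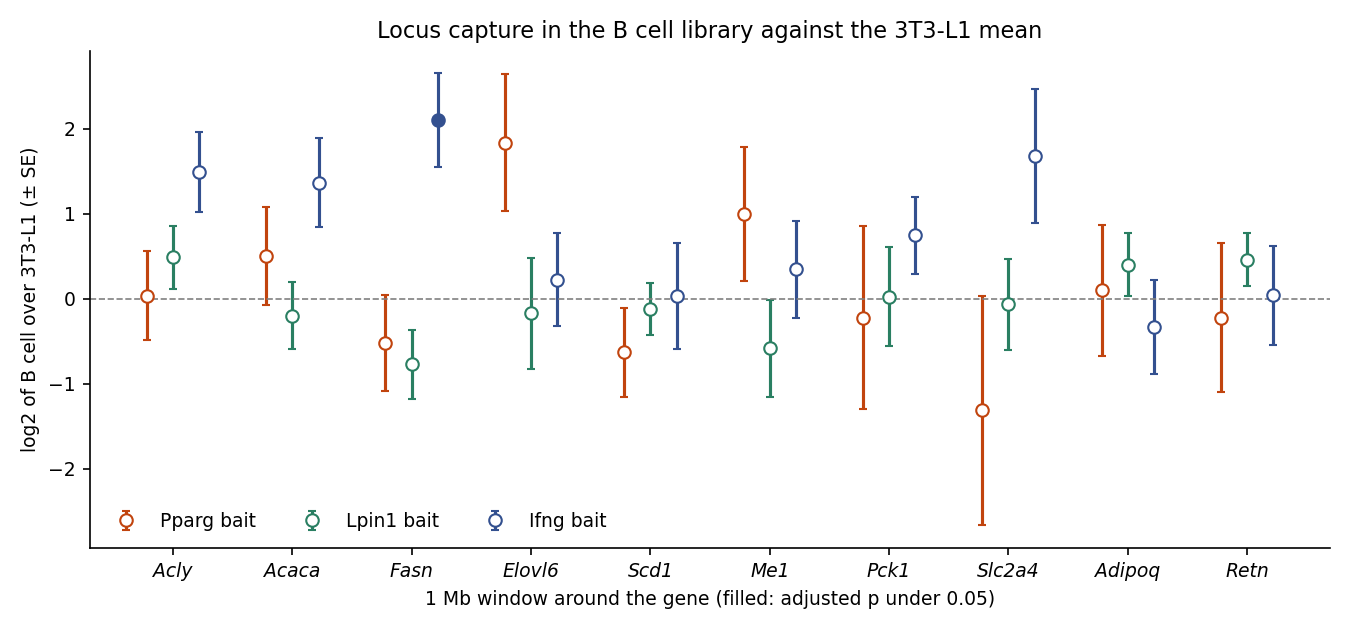
Log2 difference of the B cell library from the mean of the 3T3-L1 days at each locus, by bait, with bars of 1 SE; the filled point has an adjusted p under 0.05. Fasn with Ifng, at 2.10, is the filled point, and Acly, Acaca and Slc2a4 with Ifng lie at 1.36 to 1.67.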

How the data were processed

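The deposited files hold the authors' raw count of reads per HindIII site, 823355 sites a library, not normalised. Alignment was with Bowtie (version not given) to mm9, per the submitters' processing notes, and filtering or duplicate removal is not given in the sources used here. Per the labels' protocols, cells were fixed for 10 min in 2% formaldehyde, and HindIII and then DpnII were the enzymes. Fragments were amplified by PCR without molecular identifiers, so sites with 1 or more reads were scored as captured and counted per window.

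Windows of 1 Mb around the 10 positions were fitted together with non-overlapping 1 Mb windows of the autosomes (at least 100 sites and a mean of at least 3 captured sites; all 10 loci passed for each bait), the bait chromosome left out. edgeR 4.0.16 in R 4.3.3 (robust quasi-likelihood) was used with the captured share of other autosomes, or of the flanks (with 0.5 added to counts), as offset. Groups were the 4 days and the B cell line, 5 a bait, and the bait comparison used 24 libraries in 12 groups without chromosomes 6, 10 and 12. The SE is the log2 value over the root of F, and 95% intervals of log2 values are normal ones from it. Benjamini-Hochberg adjustment ran over all windows, with a threshold of 0.05. Multiples are means ± SD over libraries.

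All 10 members are named. The members, lists and tests were chosen with earlier results of these data known. Alternatives were DESeq2 1.42.0, limma 3.58.1, TMM, other windows, flanks, thresholds and references, thinning, no filter, a replicate block, leaving out each library, and, added after seeing the data, the own chromosome as reference and the libraries of a sample summed. Replicate numbers stand only in the deposited names. The fit was tested on simulated data. Other genes of these pathways have no mm9 position here and were not analysed.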

Additional observations from a re-analysis of the deposited data

Results flagged for a closer look

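The B cell minus 3T3-L1 difference of Fasn was set between baits by an interaction test chosen after seeing the data, when its call with Ifng was known. Each bait has 1 B cell library, the test reuses the one behind that call, and it is given as a value, not as support. The difference was 2.61 ± 0.78 (log2, SE; edgeR adjusted p = 0.0443) larger with Ifng than with Pparg, and the B cell multiples behind it were 1.81 with Ifng and 2.33 with Pparg, 1 library each. Leaving out a 3T3-L1 library gave 2.52 to 2.82, and the call was lost without Pparg day 6 replicate 2, Ifng day 1 replicate 2, Ifng day 2 replicate 2, Ifng day 6 replicate 1 or Ifng day 6 replicate 2 (adjusted p = 0.0517 to 0.0688). It was also lost with 250 kb on each side (0.180), at least 2 reads a site (0.0701), reads in place of sites (0.927), thinning (0.120), the own chromosome as reference (0.0610) and DESeq2 (0.340).

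Against Lpin1, whose B cell multiple was 1.38, the difference was 2.86 ± 0.72 (adjusted p = 0.0107). It held in all 24 fits without a library (2.77 to 3.06) and was lost with 250 kb on each side (0.179), reads (0.964) and DESeq2 (0.323).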

How the results depend on the processing

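Of 4605 values under alternatives, 4363 kept call and, where called, direction, 185 lost the call, 45 gained it and 12 reversed. A locus under the filter in a setting has no value there and adds no call to the counts below. A smaller count is therefore not made of lost calls alone. With at least 2 reads, only Acly, Scd1 and Me1 with Ifng had a value that lost a lower level over other autosomes. Over 30 pairs of locus and bait, levels over other autosomes were higher at 11 (7 with reads; 9 to 11 leaving out a library) and lower at 8 (13 with 1 Mb each side, 2 with at least 2 reads, 5 with reads, 3 in DESeq2; 7 to 9). Flank levels were higher at 7 (12 with 1 Mb, 2 with at least 2 reads, 2 with reads, 1 with sites captured in any library, 2 thinned, 1 in DESeq2, 1 with flanks to 1 Mb, 4 with limma; 4 to 7) and lower at 4 (0 with at least 2 reads, 1 with reads, 2 in DESeq2; 3 to 6). Bait differences were higher at 12 (10 to 13) and lower at 6 (2 with 250 kb, 1 with at least 2 reads, 0 with reads, 3 thinned, 2 in DESeq2; 3 to 6, with 3 without Pparg day 1 replicate 1, Pparg day 6 replicate 1, Ifng day 1 replicate 2 or Ifng day 6 replicate 2). Days were lower at 0 (1 with 1 Mb). B cells were higher at 1 (0 with 250 kb, 0 with at least 2 reads, 3 with reads, 0 in DESeq2; 1 to 2). Same-numbered libraries' deviations over the loci correlated at -0.167 to 0.595 between days. Correlations over 10 loci cannot exclude a difference shared by libraries of 1 number, and the main fits do not model it. Some whole-chromosome values did split by number. With Ifng, chromosome 16 stood at 3.49, 3.09, 2.87 and 3.00 in replicate 1 of days 0, 1, 2 and 6. In replicate 2 it stood at 2.21, 2.49, 2.35 and 2.54. With Pparg, replicate 1 had more reads than replicate 2 on every day, at day 0 2473742 against 296478. With the replicate number as a block the counts of calls above, in the same order, were 11, 8, 5, 4, 12, 4, 0 and 1. Not called under it were Pck1 for Pparg minus Ifng (-0.57, adjusted p = 0.0615) and Lpin1 minus Ifng (-0.63, 0.0560) and, over flanks, Pck1 with Pparg and Lpin1 and Acaca with Lpin1 (0.131, 0.0547 and 0.110), while Fasn with Lpin1 was called higher over its flanks (0.57, 0.0242). With the libraries of a sample summed, none of the calls of levels, flank levels, bait differences or B cells was lost. Reversed were Adipoq with the own chromosome as only reference (Ifng -0.34; Pparg minus Ifng 0.51; Lpin1 minus Ifng 0.61), Slc2a4 with Pparg with the libraries of a sample summed (0.58) and flank levels: with 1 Mb each side Slc2a4 with Lpin1 (0.57) and, with Ifng, Elovl6 (0.46), Adipoq (0.26) and Retn (-0.14). Retn with Ifng was -0.089 with sites captured in any library, Pck1 with Ifng 0.092 and 0.033 with flanks to 1 and 4 Mb, and Pck1 with Pparg -0.12 without Pparg day 2 replicate 1 (to 1.03 without others). The causes were not tested. TMM moved the median of all windows by -0.17 for Lpin1 minus Ifng and by -0.13 for Pparg day 6. Small counts limit most day and B cell contrasts.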
